A study of Mus musculus with 16 samples.

Results

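The 10 genes studied here belong to foreign-compound metabolism and to the pharmacology of the adrenal drug mitotane, and were read in H295R tumours. They are the cytochrome P450 enzymes CYP3A4 (NM_017460), CYP3A5 (NM_000777), CYP2B6 (NM_000767), CYP2W1 (NM_017781), CYP1A1 (NM_000499) and CYP1B1 (NM_000104), the receptors NR1I2 (NM_003889) and AHR (NM_001621), the efflux transporter ABCB1 (NM_000927) and the epoxide hydrolase EPHX1 (NM_000120). They were found by these RefSeq identifiers among the 29094 on the array, and all 10 were present, through 14 probes. Of the 10, 8 were measured well enough to be tested, among 20216 identifiers tested in all (69.5%). CYP3A4 was well above background on only 8 of 15 arrays and NR1I2 on 0 of 15, so neither was tested.

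H295R is a human adrenocortical carcinoma line, and it was grown as tumours in SCID mice, which lack T and B cells. Treatment was oral and lasted 28 days. Controls had corn oil alone, and the treated groups had mitotane, 9-cis retinoic acid (called 9-cisRA), or, in the combined group, both drugs. No transgene or genotype beyond SCID separates the groups, all of which come from 1 line. The design text counts 43 mice, the labels give 4 arrays per group, 16 in all, and they do not say whether an array is 1 animal, so p-values measure only the spread between these samples. The organism in GEO's labels is the mouse, but the probes are of a human design, and how RNA of the mouse host reads on them was not tested. Scanner output of 15 arrays was used, which leaves n = 3 in the combined group and n = 4 in each of the others. The assay was 1-colour (Cy3) Agilent hybridisation of total RNA, with 4 arrays on each of 4 slides and each group once per slide.

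Mitotane is a relative of the insecticide DDT that damages the steroid-producing cells of the adrenal cortex and is used against adrenocortical carcinoma. In liver it is known to activate NR1I2, the pregnane X receptor, which as a dimer with a retinoid X receptor switches on CYP3A4, CYP2B6 and ABCB1. 9-cisRA is a ligand of the retinoid X receptors. AHR is the dioxin receptor, and with its partner ARNT it drives CYP1A1 and CYP1B1. CYP2W1 is an enzyme found in some tumours, adrenocortical carcinoma among them, and its level there has been studied in relation to mitotane.

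A level here is the log2 of a probe's background-corrected signal minus the 75th percentile of all non-control spots on its array, so 0 is the brightness of that percentile. Levels of different probes depend on each probe's own sensitivity and were not ranked. The 75th percentile was 224 intensity units on control replicate 4, against 552 to 1061 on the 13 arrays other than this one and combined replicate 4. Control replicate 4 also had a median correlation of 0.874 with the other arrays, where those 13 had 0.984 to 0.99. It and combined replicate 4 had 61.6% and 57.9% of probes well above background on every spot, against 69.4% to 75.9% elsewhere. Values are therefore given with and without them. Of 8 adrenocortical marker genes, such as CYP11A1, STAR and NR5A1, all 8 were tested and 7 passed the background test on each of the 15 arrays. All 4 fibroblast genes were tested too, and their summed level had a median of 4.92 in control. It ran over 3.42 to 6.42 with mitotane, 5.33 to 7.01 with 9-cisRA and 5.72 to 5.99 with both. In this sum the 9-cisRA and combined arrays all lay above the controls. Among all identifiers, 2.39% did not overlap with control for 9-cisRA and 15.2% for combined. COL1A1, COL1A2 and DCN had changes above 0 in both comparisons. ACTA2 gave 0.11 ± 0.42 (SE) for 9-cisRA and -0.70 ± 0.46 for combined. Of 5 hepatocyte genes, 2 were above background on no array and only APOA1 was tested. Of 2 leukocyte genes on the array 1, PTPRC, was tested, and the list's summed level ran from -4.17 to -2.90 on 14 arrays but reached 5.15 on control replicate 4. The part of these cell types in the results was not tested.

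No tested gene of the 10 passed the test in any comparison. Each comparison was fitted over all 20216 identifiers with limma, and 0 of them (0%) passed a Benjamini-Hochberg adjusted p of 0.05 in any of the 6 comparisons. At an unadjusted p under 0.05, 0 of 8 genes were counted for mitotane against control, where 6.04% of all identifiers were. The count was also 0 for 9-cisRA against control (3.51% of all), for combined against control (13.8%), for combined against mitotane (4.75%) and for the interaction, the difference between the combined change and the sum of the single-drug changes (3.71%). It was 2 of 8, CYP2B6 and ABCB1, for combined against 9-cisRA, beside 9.47% of all. With combined replicate 4 left out that count was 0 of 8, beside 6.49% of all. A fit with array weights was the exception to these counts. In it control replicate 4 counted for 0.035, control replicate 2 for 8.81 and combined replicate 1 for 3.96. For combined against control it called 2 of 8 genes (CYP2B6, CYP3A5) and 5788 of all 20216 identifiers, so 2 of 8 is near the background there. For combined against 9-cisRA it called 2 of 8 genes (CYP2B6, ABCB1) and 2003 of the 20216. In bulk tumour RNA, fewer cells of a type and less RNA per cell cannot be told apart.

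Most fitted values against corn oil were above 0. Mitotane gave 7 of 8 values above 0, with a median of 0.28 beside 0.09 over all identifiers, 61.5% of which were above 0. 9-cisRA gave 5 above and 3 below, with a median of 0.10 beside 0.03, and 53.9% of all were above 0. The combined group gave 8 of 8 above 0, with a median of 0.18 beside 0.09, and 58.7% of all identifiers were above 0 in that comparison. Leaving out control replicate 4, these splits became 8 above and 0 below for mitotane, 4 and 4 for 9-cisRA, and 6 and 2 for combined, with medians of 0.15, 0.015 and 0.22. Over all identifiers 64.4%, 53.6% and 60.9% were then above 0, with medians of 0.078, 0.016 and 0.079. The split thus moved with 1 control array in each comparison. The 3 comparisons share the control arrays.

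**Figure D1:**
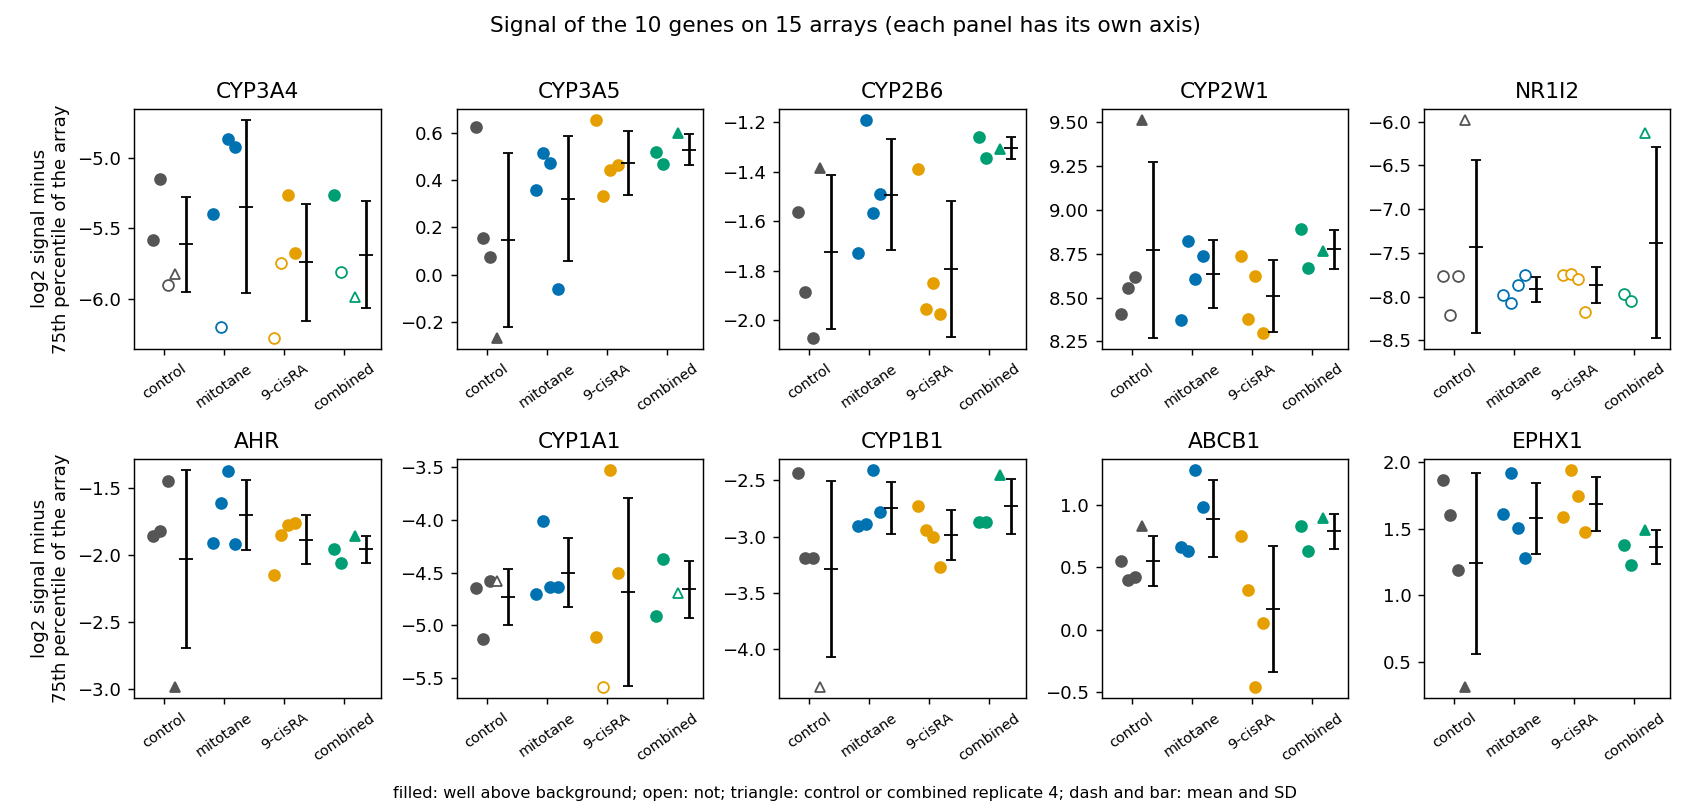
Level of each gene on each of the 15 arrays, as log2 signal minus the array's 75th percentile, by treatment group. Filled symbols are well above background, open symbols are not, triangles are control and combined replicate 4, and the dash with its bar is the mean and SD of the group (n = 3 combined, n = 4 others). CYP2B6 in the combined group sits above the 9-cisRA group, and control replicate 4 is the lowest array for AHR, CYP1B1, EPHX1 and CYP3A5 and the highest for CYP2W1.

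NR1I2, the pregnane X receptor, was not detected. Its probe, which has 10 spots per array, was not well above background on any of the 15 arrays, with signals of 2.56 to 9.41 intensity units. Such values give only a bound, so no fold between groups is given. Its partner RXRA, by contrast, was well above background on all 15 arrays.

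CYP3A4, the main drug-metabolising P450 of adult liver and a classic NR1I2 target, was at the edge of detection. It was well above background on 2 of 4 control, 3 of 4 mitotane, 2 of 4 9-cisRA and 1 of 3 combined arrays. Group means were -5.61 ± 0.34 (SD, n = 4) in control, -5.34 ± 0.62 (n = 4) with mitotane, -5.74 ± 0.42 (n = 4) with 9-cisRA and -5.69 ± 0.38 (n = 3) with both. The groups overlapped, with the highest array (-4.86) and the second highest (-4.92) both from mitotane and the lowest (-6.28) from 9-cisRA. With so many arrays not above background, no change between groups is given.

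CYP3A5, the related enzyme that is also expressed outside the liver, was detected on all 15 arrays. Control arrays read 0.63, 0.16, 0.07 and -0.27, the last being replicate 4. Mitotane arrays read 0.36, 0.52, 0.47 and -0.06, 9-cisRA arrays 0.65, 0.33, 0.44 and 0.46, and combined arrays 0.52, 0.47 and 0.60. The lowest arrays were the fourth replicates of control and mitotane, and control replicate 1 was above every combined array. The change was 0.17 ± 0.18 (SE) for mitotane, 0.33 ± 0.18 for 9-cisRA and 0.38 ± 0.20 for combined, with limma adjusted p of 0.749, 0.744 and 0.41. These were 0.036, 0.19 and 0.24 when control replicate 4 was left out, and with array weights the combined value was 0.30 with a limma adjusted p of 0.0437. On the same slide, 9-cisRA was above control on 4 of 4 slides and combined on 2 of 3.

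CYP2B6, a P450 induced through NR1I2 and its sister receptor in liver, was the 1 tested gene whose groups did not overlap in any comparison of all 15 arrays. Its main probe read -1.56, -1.88, -2.07 and -1.38 in control, and -1.73, -1.19, -1.56 and -1.49 with mitotane. It read -1.39, -1.96, -1.85 and -1.98 with 9-cisRA, and -1.26, -1.34 and -1.31 with both drugs. All 3 combined arrays were above all 4 control and all 4 9-cisRA arrays, while mitotane replicate 2 was above them. Such non-overlap in either direction was found for 15.2% of all identifiers in combined against control and for 16.4% in combined against 9-cisRA, so 1 of 8 genes in each is near the background. No tested gene of the set had non-overlapping groups for mitotane against control (4.24% of all), 9-cisRA against control (2.39%) or combined against mitotane (11%).

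The combined change of CYP2B6 against control was 1.34-fold (95% interval 0.998 to 1.79), or 0.42 ± 0.20 on the log2 scale, with a limma adjusted p of 0.364. Against 9-cisRA it was 0.49 ± 0.20, with a limma adjusted p of 0.45. The single drugs gave 0.23 ± 0.18 for mitotane and -0.07 ± 0.18 for 9-cisRA. With control replicate 4 left out, combined against control was 0.53 ± 0.18 and its limma adjusted p 0.188, and 1 of 8 genes then had an unadjusted p under 0.05 beside 18.3% of all identifiers. In that setting 4 of 8 genes had non-overlapping combined and control arrays, beside 29.1% of all. Without combined replicate 4 instead, the limma adjusted p was 0.666 against control and 0.781 against 9-cisRA. Array weights gave 0.57 (limma adjusted p = 0.00319) and 0.56 (0.0225) for these comparisons, and the slide as a block gave 0.37 (0.469) and 0.44 (0.612). Within slides, combined was above control on 3 of 3 slides, by 0.07 to 0.54, and above 9-cisRA on 3 of 3, by 0.13 to 0.67. Mitotane was above control on 2 of 4 slides, and so was 9-cisRA.

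A second CYP2B6 probe gave other values against control, where 1 control array stood apart. Probe A_23_P208373 read -2.80, -2.68, -2.12 and 0.09 in control, so replicate 4 stood far above the range of -2.80 to -1.95 on the other 14 arrays. Its combined change was -0.47 ± 0.50 against control and 0.19 ± 0.50 against 9-cisRA. Group medians of this probe were -2.40 in control, -2.33 with mitotane, -2.54 with 9-cisRA and -2.33 with both. Its difference of combined from control was 0.47 on slide 1, 0.21 on slide 2 and -2.33 on slide 4. With control replicate 4 included, averaging both probes turned the sign of the change against control for mitotane (-0.11) and combined (-0.025).

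The combined array without scanner output, replicate 3, could be read only in the series' value table, whose values are log2 differences centred per probe. There CYP2B6's main probe stood at -0.07, below the 0.20 to 0.29 of the other combined arrays, whereas its second probe stood at 0.95, above their -0.092 to 0.14. Fitted on that table with 4 combined arrays, the combined change was 0.33 against control and 0.38 against 9-cisRA, with limma adjusted p of 0.392 and 0.517. The same array was also below the other combined arrays for CYP3A5, at -0.13 against 0.0026 to 0.14, and above them for CYP2W1 (0.39 against 0.012 to 0.23) and EPHX1 (0.11 against -0.33 to -0.071).

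**Figure D2:**
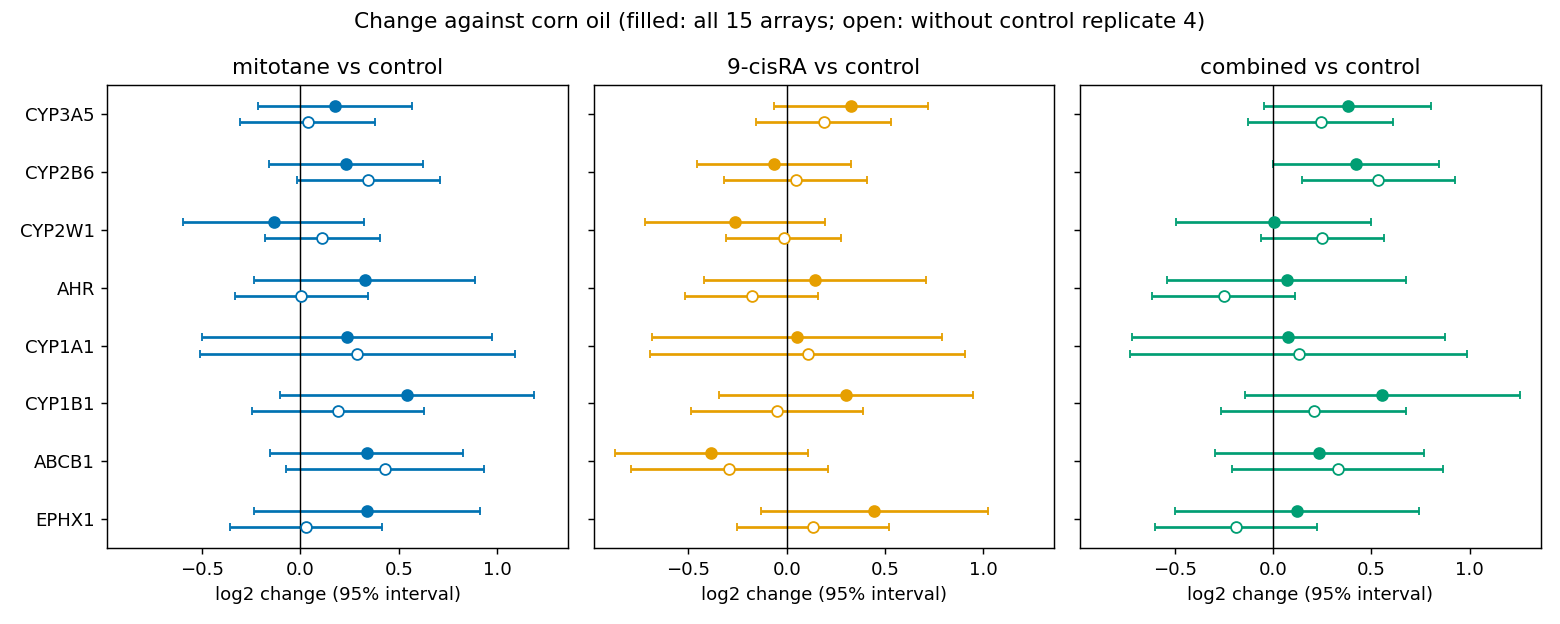
Log2 change of the 8 tested genes against corn oil for mitotane, 9-cisRA and the combination, with 95% intervals from limma. Filled points use all 15 arrays and open points leave out control replicate 4. Every filled interval reaches 0, and the points of AHR and EPHX1 in the combined panel move to the other side of 0 when that array is left out.

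CYP2W1, the tumour-associated P450, was read at 163889 to 384695 intensity units with no saturated spot. Its level was 8.77 ± 0.50 (SD, n = 4) in control, 8.64 ± 0.20 (n = 4) with mitotane, 8.51 ± 0.20 (n = 4) with 9-cisRA and 8.78 ± 0.11 (n = 3) with both. Control arrays read 8.41, 8.55, 8.62 and 9.51, and the last, replicate 4, was 0.99 above the mean of the other controls. Its signal before scaling was the lowest of the 15 arrays, at 163889 units, beside a 75th percentile of 224 on that array. All 14 arrays other than this one lay within 0.59 of each other, between 8.30 and 8.89.

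The change of CYP2W1 was -0.14 ± 0.21 for mitotane, -0.26 ± 0.21 for 9-cisRA and 0.0032 ± 0.23 for combined, with limma adjusted p of 0.816, 0.744 and 0.995. Without that array they were 0.11 ± 0.14, -0.016 ± 0.14 and 0.25 ± 0.15. The mitotane value thus changed sign with that array. The 95% intervals without it ran from -0.18 to 0.40 for mitotane and from -0.31 to 0.28 for 9-cisRA.

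AHR, the dioxin receptor, was detected by its main probe on all 15 arrays. Control arrays read -1.86, -1.82, -1.45 and -2.99, and mitotane arrays -1.91, -1.61, -1.37 and -1.92. 9-cisRA arrays read -2.15, -1.85, -1.78 and -1.76, and combined arrays -1.96, -2.06 and -1.86. Control replicate 4 was 1.28 below the mean of the other controls, whereas the treated arrays overlapped the 3 remaining controls. The change was 0.33 ± 0.26 for mitotane, 0.14 ± 0.26 for 9-cisRA and 0.07 ± 0.28 for combined. Without that array it was 0.0049 ± 0.16, -0.18 ± 0.16 and -0.25 ± 0.17, so the 9-cisRA and combined values changed sign. The second AHR probe, A_33_P3316800, was also lowest on control replicate 4, at -3.99.

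Both enzyme genes that AHR is known to drive were tested. CYP1A1, which oxidises polycyclic aromatic hydrocarbons, was well above background on 3 of 4 control, 4 of 4 mitotane, 3 of 4 9-cisRA and 2 of 3 combined arrays. Group means were -4.73 ± 0.26 (SD, n = 4), -4.50 ± 0.32 (n = 4), -4.68 ± 0.89 (n = 4) and -4.66 ± 0.27 (n = 3). The widest spread was within 9-cisRA, from -5.59 on replicate 2 to -3.52 on replicate 3, and it covered all other arrays. The change was 0.23 ± 0.34 for mitotane, 0.05 ± 0.34 for 9-cisRA and 0.08 ± 0.37 for combined, with limma adjusted p of 0.803, 0.952 and 0.925. Within slides, mitotane was above control on 1 of 4 slides only, by 1.11 on slide 2.

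CYP1B1, which hydroxylates oestrogens and is common in tumours, had on its main probe the largest fitted values of these genes for mitotane and combined against control. Its main probe read -2.44, -3.19, -3.19 and -4.34 in control, the last not above background. It read -2.91, -2.89, -2.40 and -2.78 with mitotane, -2.73, -2.94, -3.00 and -3.27 with 9-cisRA, and -2.87, -2.87 and -2.45 with both. Control replicate 1 lay above all but 1 treated array, so the groups overlapped. The change was 0.54 ± 0.30 for mitotane, 0.30 ± 0.30 for 9-cisRA and 0.56 ± 0.33 for combined, with limma adjusted p of 0.713, 0.745 and 0.463. It was 0.19 ± 0.20, -0.048 ± 0.20 and 0.21 ± 0.22 with control replicate 4 left out, and without combined replicate 4 as well the last was 0.066 ± 0.23. The second probe, A_33_P3290343, was high on the same 2 arrays, at -3.64 on control and -3.02 on combined replicate 4, against -5.93 to -4.97 elsewhere. Control replicate 4 was thus lowest on the main probe but high on the second. The second probe's means were -5.05 in control, -5.27 with mitotane, -5.53 with 9-cisRA and -4.58 with both. On it, the means of mitotane and 9-cisRA thus lay below the control mean, which includes replicate 4. Control replicates 1, 2 and 3 read -5.23, -5.72 and -5.63 on it. Its medians were -5.43 in control, -5.09 with mitotane, -5.61 with 9-cisRA and -5.26 with both. Between the probes r was -0.13 over 15 arrays and 0.62 without control replicate 4.

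ABCB1, which encodes P-glycoprotein, the pump that carries many drugs out of cells, was read by its main probe, A_33_P3332414, at 0.55, 0.40, 0.42 and 0.83 in control and 0.66, 0.63, 1.28 and 0.98 with mitotane. It was at 0.75, 0.32, -0.46 and 0.06 with 9-cisRA and 0.83, 0.63 and 0.90 with both. The 9-cisRA arrays spread most and held the lowest values, with replicate 3 the lowest of all, and replicate 1 still lay among the combined arrays. Combined against 9-cisRA was 0.62 ± 0.25, or 1.54-fold (95% interval 1.06 to 2.22), with a limma adjusted p of 0.446. That p was 0.819 without combined replicate 4, 0.178 without control replicate 4, 0.585 with the slide as a block (0.58) and 0.0341 with array weights (0.62).

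Against control, ABCB1's main probe gave 0.34 ± 0.23 for mitotane, -0.38 ± 0.23 for 9-cisRA and 0.24 ± 0.25 for combined, with limma adjusted p of 0.713, 0.744 and 0.671. Mitotane was above control on 4 of 4 slides, by 0.10 to 0.86, and 9-cisRA below it on 3 of 4. Leaving out control replicate 4 gave 0.43, -0.29 and 0.33.

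The other ABCB1 probe, A_23_P82523, which is averaged over 10 spots per array, ran the other way between these groups. It read 0.53, 0.97, 0.70 and 0.54 with 9-cisRA and 0.20, 0.45 and 0.09 with both, so every combined array was below every 9-cisRA array. In control it read 0.83, 0.70, 0.38 and -0.34, and with mitotane 0.63, 0.70, 0.52 and 0.42. Within slides it was above control on 2 of 4 slides with mitotane and on 3 of 4 with 9-cisRA. Its combined change against 9-cisRA was -0.44 ± 0.24, with a limma adjusted p of 0.616, and its 9-cisRA change against control 0.29 ± 0.22. The combined change against 9-cisRA thus differed by 1.06 between the probes, with a two-sided exact permutation p of 0.0857. That p was 0.78 after Benjamini-Hochberg adjustment over the 20 such comparisons of 4 genes with 2 probes, where the smallest p the design allows is 0.0286. The ABCB1 probes thus gave opposite directions for combined against 9-cisRA.

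**Figure D3:**
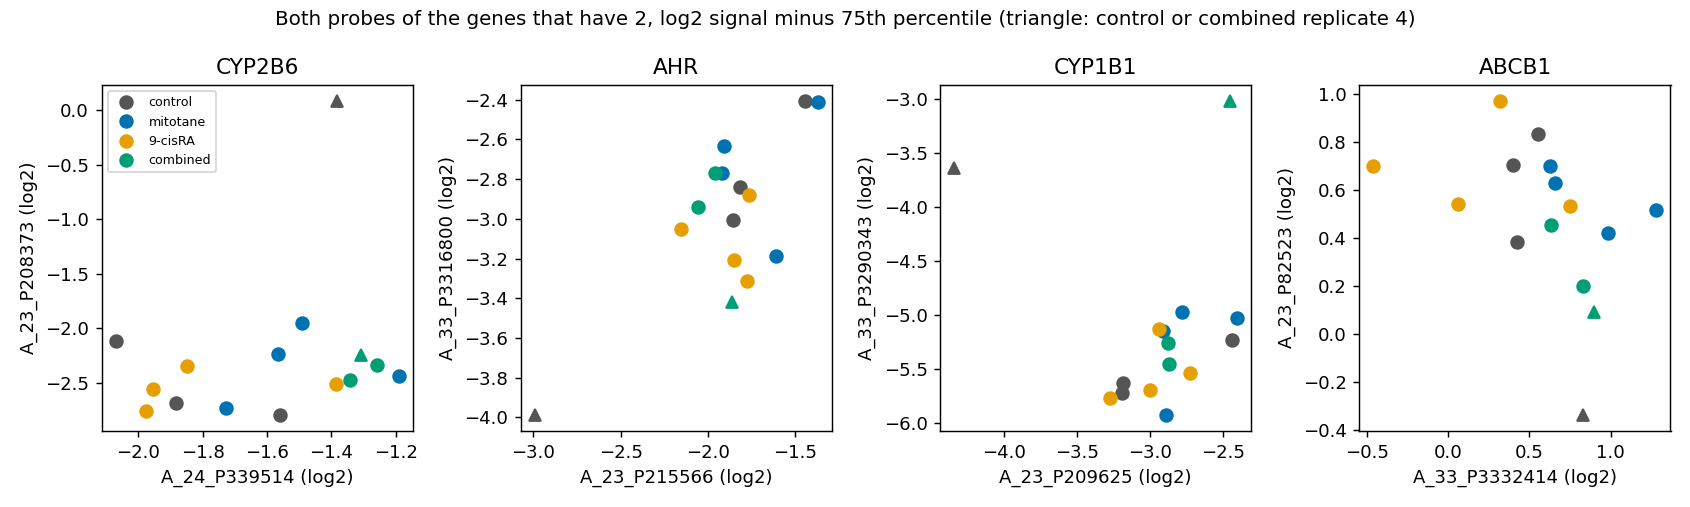
Levels of both probes of CYP2B6, AHR, CYP1B1 and ABCB1 on each array, main probe on the horizontal axis and the other on the vertical, as log2 signal minus the array's 75th percentile, coloured by group. Triangles are control and combined replicate 4. The second CYP2B6 probe is at 0.09 on control replicate 4 alone, and for ABCB1 the 3 combined arrays lie below every 9-cisRA array on the vertical axis and to the right of 9-cisRA replicates 2, 3 and 4 on the horizontal axis.

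EPHX1, microsomal epoxide hydrolase, which opens the epoxides that P450 enzymes form, was detected on all 15 arrays. Control arrays read 1.86, 1.60, 1.19 and 0.31, and mitotane arrays lay between 1.28 (replicate 4) and 1.92 (replicate 2). 9-cisRA arrays read 1.59, 1.94, 1.74 and 1.47, and combined arrays 1.37, 1.23 and 1.49. Control replicate 4 was 1.24 below the mean of the other controls, and those 3 controls spanned most of the treated range. The change was 0.34 ± 0.27 for mitotane, 0.45 ± 0.27 for 9-cisRA and 0.12 ± 0.29 for combined, with limma adjusted p of 0.714, 0.744 and 0.852. Leaving it out gave 0.026 ± 0.18, 0.14 ± 0.18 and -0.19 ± 0.19. Combined against 9-cisRA was -0.32 ± 0.29, or -0.39 ± 0.21 without both doubtful arrays, with a limma adjusted p of 0.866 and 0.408.

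Giving both drugs was also set against each drug alone. Combined against mitotane gave 4 values above and 4 below 0, from -0.26 for AHR to 0.21 for CYP3A5, with a limma adjusted p of 1 for every gene. Combined against 9-cisRA gave 6 above and 2 below, AHR (-0.07) and EPHX1 (-0.32) being below. The interaction gave 3 above and 5 below, from -0.66 ± 0.39 for EPHX1 to 0.40 ± 0.32 for CYP2W1, with the smallest limma adjusted p at 0.965. With control replicate 4 left out these 2 became -0.35 ± 0.25 and 0.16 ± 0.19, and the split 5 above and 3 below.

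In the order of the 4 group means, no neighbouring groups were separated for any of the 8 tested genes, since their arrays overlapped each time. The combined group had the highest mean for CYP3A5, CYP2B6, CYP2W1 and CYP1B1. Mitotane had the highest for AHR, CYP1A1 and ABCB1, and 9-cisRA for EPHX1. The identifiers whose levels ran most like the main ABCB1 probe over the 15 arrays were NM_006306 (Pearson r = 0.962) and NM_021795 (r = 0.952), which is a description of these arrays, all of which share 1 normalisation.

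The wider pathway was read from 54 other genes of drug metabolism, of which 44 were on the array and 32 were tested. Of these, 0 passed an adjusted p of 0.05 in either direction in any of the 6 comparisons. At an unadjusted p under 0.05, mitotane against control counted 1 gene higher and 0 lower, 9-cisRA 0 and 0, combined 4 and 0, combined against mitotane 0 and 0, combined against 9-cisRA 1 and 0, and the interaction 0 and 1. The shares of all identifiers counted in the comparisons with control were 6.04%, 3.51% and 13.8%. They were 4.75% for combined against mitotane, 9.47% for combined against 9-cisRA and 3.71% for the interaction. Against control, 20, 22 and 21 of the 32 had values above 0 for mitotane, 9-cisRA and combined, with medians of 0.13, 0.17 and 0.11. With control replicate 4 left out these were 20, 18 and 16, with medians of 0.024, 0.037 and 0.027. The unadjusted count was then 1 higher and 2 lower for mitotane, and 3 higher and 3 lower for combined, beside 7.68% and 18.3% of all.

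RXRA, the retinoid X receptor alpha that binds 9-cisRA and pairs with NR1I2, led the list for mitotane. It read 2.57, 2.52, 2.33 and 1.80 in control and 2.63, 2.93, 2.95 and 2.84 with mitotane. It read 2.71, 2.37, 2.66 and 2.37 with 9-cisRA and 2.79, 2.86 and 2.82 with both, so the mitotane and combined arrays all lay above the controls and 9-cisRA did not. Non-overlap with control was found for 4.24% of all identifiers for mitotane and 15.2% for combined. The change was 0.53 ± 0.17 for mitotane and 0.52 ± 0.18 for combined, with limma adjusted p of 0.713 and 0.265. When control replicate 4 was left out it was 0.36 ± 0.12 and 0.35 ± 0.13. TIPARP, a target gene of AHR, gave -0.27 ± 0.21 for mitotane and -0.33 ± 0.23 for combined, or -0.46 ± 0.18 and -0.52 ± 0.19 without control replicate 4. Its combined value against 9-cisRA was -0.40 ± 0.23.

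Among other drug-metabolising P450s, 8 of 13 on the array were tested, and CYP2C19, CYP3A43 and CYP4B1 were above background on no array. In combined against control 7 of the 8 were above 0, with a median of 0.41, or 6 of 8 and 0.21 without control replicate 4. CYP2R1, a vitamin D 25-hydroxylase, gave 0.42 ± 0.16 and CYP2D6, which metabolises many basic drugs, 0.43 ± 0.19, with limma adjusted p of 0.287 and 0.339. Against 9-cisRA, combined gave 0.44 ± 0.19 for CYP2D6 and 0.51 ± 0.26 for CYP2E1, which oxidises ethanol, with limma adjusted p of 0.494 and 0.593. Against mitotane it gave 0.27 ± 0.16 for CYP2R1 and 0.27 ± 0.19 for CYP2D6. CYP3A7, the fetal CYP3A enzyme, gave 0.41 ± 0.21 for combined against control beside 0.38 for CYP3A5 (0.24 and 0.24 without control replicate 4), and cross-hybridisation between these close relatives was not tested. CYP2C8 was on the other side, at -0.73 ± 0.38 for mitotane and -0.48 ± 0.41 for combined. It read -1.01 on control replicate 4, and without that array these were -0.40 ± 0.34 and -0.15 ± 0.36. The combined value was 0.099 ± 0.35 without combined replicate 4 (-3.63) and 0.43 ± 0.21 without both, so its sign rests on these arrays. The CYP2C8 interaction value of 0.69 ± 0.56 became 0.36 ± 0.48 without control replicate 4 and 1.27 ± 0.45 without combined replicate 4.

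The P450 redox partners and haem supply genes POR, CYB5A, ALAS1 and PGRMC1 had values above 0 in each comparison with control over all 15 arrays, with medians of 0.21 for mitotane, 0.24 for 9-cisRA and 0.14 for combined. This rested on control replicate 4. Without it 2 of 4 were above 0 for mitotane, 2 of 4 for 9-cisRA and 0 of 4 for combined, with medians of -0.0041, 0.015 and -0.070. Of 7 other hydrolases and oxidoreductases, EPHX2, the soluble epoxide hydrolase, gave 0.40 ± 0.21 for mitotane and 0.52 ± 0.22 for combined, with a limma adjusted p of 0.325 for the latter, and 0.22 ± 0.17 and 0.34 ± 0.18 without control replicate 4. FMO5, a flavin monooxygenase, gave -0.83 ± 0.46 for combined, where combined replicate 4 (-6.14) was not above background. It gave -0.19 ± 0.38 without that array and 0.075 ± 0.33 without control replicate 4 as well, and its combined value against mitotane, -0.50 ± 0.46, became 0.14 ± 0.38 without combined replicate 4. CES1, a carboxylesterase, gave -0.55 ± 0.41 for 9-cisRA, and -0.032 ± 0.24 without control replicate 4. ALDH1A1, which makes retinoic acid from retinal, gave -0.51 ± 0.29 for combined against 9-cisRA, or -0.35 ± 0.32 without combined replicate 4. NQO1, a quinone reductase, had an interaction value of -0.86 ± 0.54, or -0.33 ± 0.18 without control replicate 4.

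Of 7 conjugating enzymes, TPMT, which methylates thiopurines, gave 0.40 ± 0.22 for 9-cisRA, GSTM3 gave 0.29 ± 0.17 and GSTP1 gave -0.33 ± 0.21, the last 2 being glutathione transferases. These were 0.17, 0.096 and -0.13 when control replicate 4 was left out. The interaction value of GSTP1 was 0.53 ± 0.31, or 0.33 ± 0.23 without control replicate 4. The 1 other drug transporter tested, ABCC3, gave -0.20 for mitotane, 0.070 for 9-cisRA and -0.095 for combined, which became 0.013, 0.28 and 0.11 without control replicate 4.

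**Figure D4:**
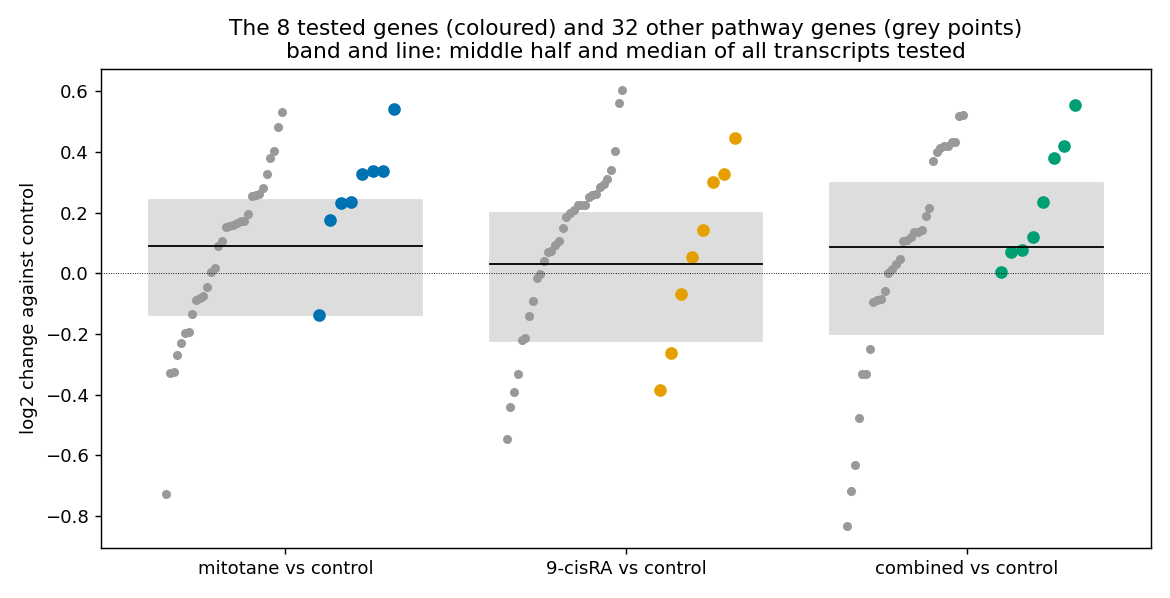
Log2 change against control of the 8 tested genes (coloured points) and of the 32 other pathway genes (grey points), each set sorted by value, for mitotane, 9-cisRA and combined. The band spans the interquartile range of all 20216 identifiers and the line is their median. The grey points run from -0.73 to 0.53 for mitotane, from -0.55 to 0.60 for 9-cisRA and from -0.83 to 0.52 for combined, and the coloured points lie within about the same span.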

How the data were processed

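Per the labels' protocols and file headers, total RNA (200 ng) was labelled with Cy3, and arrays were read with Agilent Feature Extraction 11.0.1.1 on a human design (hg19). The authors deposited scanner intensity values, already background-subtracted, and a value table of log2 values per probe. That table was matched to the scanner files as differences from each probe's median (correlation at least 0.998 per array over 23788 probes). Its medians ran from -0.07 to 0.25 and how it was centred is not stated by the labels or headers. From the intensity, log2 values were computed and scaled by subtracting each array's 75th percentile (43118 spots, controls left out), outlier spots were dropped and the probe with the highest mean stood for its identifier. Identifiers were tested if some group had all spots of the probe well above background on each of its arrays. The 4 groups were fitted together in limma 3.58.1 (lmFit, eBayes, R 4.3.3) with Benjamini-Hochberg adjustment over 20216 identifiers, and the fit was tested on simulated data.

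Every gene of the rule was named. Of the other pathway genes, those past the threshold or else the 2 with the smallest unadjusted p in each direction per comparison were named, with members needed for a count of 5 or fewer; CYP3A7 was chosen after its values were seen. Some genes that this rule names are not reported here. The 2 identifiers of most similar pattern were taken for the gene with the smallest unadjusted p. The genes and lists were chosen with earlier results of these data known. Symbols of genes outside the rule were paired with RefSeq identifiers by hand. Alternatives tried were other normalisations and filters, both probes averaged, the slide as a block, array weights, the compared groups alone, the value table, and arrays left out (for the pathway genes, chosen after seeing the data). The normexp alternative used the median signal. The number of arrays limits the precision.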

Additional observations from a re-analysis of the deposited data

Results flagged for a closer look

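In 3 of 42 sets of 4 arrays (each probe in each group of 4), 1 array stood apart from the other 3 by more than Dixon's 95% critical value for the gap, where chance alone gives about 1 in 20. CYP1A1 was at -5.13 on control replicate 2, below the -4.65 to -4.57 of the other controls. CYP1A1 was at -4.01 on mitotane replicate 2, above the -4.70 to -4.64 of the other mitotane arrays, and both lie on slide 2. NR1I2 was at -8.18 on 9-cisRA replicate 4, below -7.80 to -7.74, with no array of that gene above background. The combined group has 3 arrays and was not covered.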

How the results depend on the processing

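The 26 changes reported for single genes (8 genes against control in 3 comparisons, and CYP2B6 and ABCB1 in combined against 9-cisRA) gave 504 values under the alternatives. Of these, 43 changed sign and 4 passed an adjusted p of 0.05, all 4 with array weights, which gave control replicate 4 a weight of 0.035. The same fit gave control replicate 2 a weight of 8.81 and combined replicate 1 a weight of 3.96. With weights, CYP3A5 (0.30, limma adjusted p 0.0437) and CYP2B6 (0.57, 0.00319) passed in combined against control, and CYP2B6 (0.56, 0.0225) and ABCB1 (0.62, 0.0341) in combined against 9-cisRA, which is 2 genes in each. The identifiers past the threshold with weights numbered 3 for mitotane, 4 for 9-cisRA, 5788 for combined, 103 for combined against mitotane and 2003 for combined against 9-cisRA. Combined against mitotane had 0 to 1 when single arrays were left out (1 without mitotane replicate 2) and 1 in the value table with control replicate 4 left out, a setting added after seeing the data. At an unadjusted p under 0.05 the counts with weights were 4462, 2362, 8548, 3249, 5652 and 2594 in the order of the report, against 1221, 710, 2787, 960, 1915 and 751. With only the compared groups fitted they were 579, 303, 1312, 1956 and 3050, and without control and combined replicate 4 they were 1929, 1076, 2359, 1763, 2999 and 1455. When the value table was fitted with that control left out, the counts that moved were 4559 for combined, 2402 and 4366 against mitotane and 9-cisRA, and 1172 for the interaction.

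Signs turned as follows, and the cause was not tested beyond the arrays and probes named. For mitotane, CYP2W1 gave 0.18 with normexp and quantile normalisation, 0.051 with quantile alone, 0.071 with weights, 0.11 without both doubtful arrays and 0.090 in the value table when control replicate 4 was left out. CYP2B6 gave -0.11 with both probes averaged, AHR -0.015 in the latter table and EPHX1 -0.016 with weights. For 9-cisRA, CYP2B6 gave 0.0017 with normexp, 0.0096 with weights, 0.046 without both arrays and 0.049 in that table, and CYP2W1 0.089 with normexp and 0.036 with quantile. AHR gave -0.052 with weights, -0.18 without both arrays and -0.18 in that table, and CYP1B1 -0.088 with both probes averaged, -0.048 without both arrays and -0.046 in that table. For combined, CYP2B6 gave -0.025 with both probes averaged and CYP2W1 -0.0045 with the slide as a replicate block. AHR gave -0.19 with weights, -0.30 without both arrays and -0.26 in that table, and EPHX1 -0.26, -0.25 and -0.14. The replicate block changed no call and no other sign. Same-numbered arrays share a slide, and their deviations from the group means correlated between -0.27 and 0.37, above 0.1 in 7 of 21 pairs. For arrays on different slides the range was -0.42 to 0.48, above 0.1 in 18 of 63 pairs. These correlations cannot show whether the numbers pair the samples.

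Leaving out single arrays moved CYP2W1 between -0.26 and 0.11 for mitotane and between -0.12 and 0.25 for combined. For 9-cisRA it moved CYP2B6 between -0.20 and 0.046, AHR between -0.18 and 0.34, CYP1A1 between -0.33 and 0.355 and CYP1B1 between -0.048 and 0.59. For combined it moved AHR between -0.25 and 0.26, CYP1A1 between -0.066 and 0.20 and EPHX1 between -0.19 and 0.33. Dim probes limit CYP1A1, CYP3A4 and NR1I2.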
